A study of Mus musculus with 58 samples.

Results

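Control extraembryonic ectoderm was compared with control morulae, gene by gene, to describe the normal change from the early embryo to the placental lineage. The comparison rests on 4 of the 58 samples of the series, 18 of which are RNA-seq samples: 2 libraries of extraembryonic ectoderm (ExE CTR) and 2 libraries of morulae (morula CTR). The members were taken from the labels alone, by stage and by the control designation. For each library the count assigned to the maternal allele and the count assigned to the paternal allele of a gene were added. Both groups are labelled wild type, are the controls of a Pcgf1/6 knockout experiment and come from the cross B6.129 x PWK. Polyadenylated RNA was copied to cDNA with the SMART-Seq v4 kit and made into libraries with Nextera XT. The labels used here give no age for the embryos of the RNA libraries, no number of embryos per library and no statement that the 2 libraries of a group came from separate litters. The p-values below therefore measure the spread between these libraries, which may be partly technical. A second pair of groups was used as a repeat: 2 morula and 4 ExE libraries of the same cross labelled as a double maternal knockout of Pcgf1 and Pcgf6 (matKO), in which the oocyte lacked 2 subunits of a Polycomb repressive complex. The other RNA libraries of the series, from oocytes and from morulae of B6 x PWK and PWK x B6 crosses, and its maps of the histone marks H2AK119ub1 and H3K27me3 were not used here.

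The morula is a compacted ball of cells in which the outer cells are about to become trophectoderm, the first epithelium of the embryo, while the inner cells will form the pluripotent inner cell mass. After implantation the polar trophectoderm grows into the extraembryonic ectoderm, a proliferating epithelium that holds the trophoblast stem cells and supplies the ectoplacental cone, the source of spongiotrophoblast and giant cells of the placenta. FGF signals from the epiblast keep the stem cells dividing, through transcription factors such as CDX2, EOMES, ESRRB, ELF5 and TFAP2C, and cells that leave this niche turn on genes of the ectoplacental cone. The trophoblast is also known for strong expression of imprinted genes, which are read from 1 parental allele only, and for silencing of the paternal X chromosome in female embryos.

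The 2 morula libraries held 1685510 and 1587445 allele-assigned counts and the 2 ExE libraries held 4219202 and 4361832. A count was found for 13033 and 13074 genes in the morula libraries and for 10973 and 10874 genes in the ExE libraries. Across the tested genes, log2 values correlated at r = 0.961 between the morula libraries and at 0.984 between the ExE libraries, against 0.594 to 0.604 between stages. These are correlations across genes, which are not independent replicates. Levels are given below as CPM, the count relative to the size of the scaled library, that is, of the total count multiplied by its trimmed-mean (TMM) factor. They are not divided by transcript length, so levels of different genes are not compared.

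Several features of the libraries themselves differed between the stages and bear on every result below. Counts were spread far more evenly over genes in the morula libraries, where the 100 highest genes took 7.84% and 8.31% of all counts, than in the ExE libraries, where they took 21.9% and 22.9%. Genes were also grouped by their level in ExE, which is itself a term of the change, so that groups with a higher level lean towards rises by construction. Among 10 families of housekeeping genes, such as the proteasome, the spliceosome and the mitochondrial ribosome, which were chosen after the values were seen, the median log2 change rose from -1.35 for 31 genes under 30 CPM in ExE to 2.55 for 56 genes at 1000 CPM or more. The same medians over all genes with more than 3 counts in both stages were -1.04 and 2.41. With quantile normalisation, which forces the libraries to 1 distribution and was added after seeing the data, the range for the housekeeping families narrowed to 0.06 and 1.10. These medians are a description and serve as no reference for single genes. In such bulk libraries fewer cells of a type cannot be told apart from less RNA per cell.

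**Figure D1:**
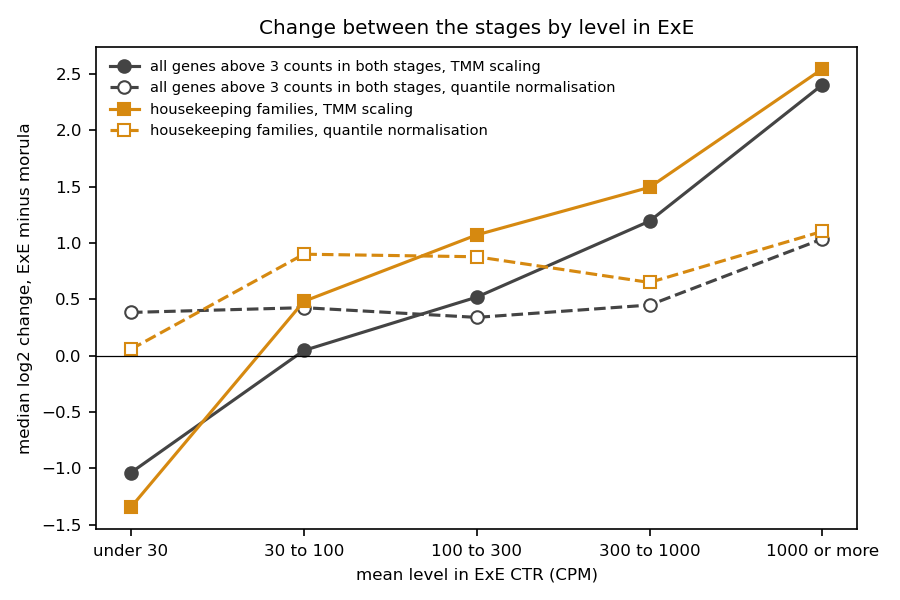
Median log2 change between the stages (vertical axis, ExE CTR minus morula CTR) for genes grouped by their mean level in ExE CTR (horizontal axis, CPM), a level that is itself a term of the change. Black circles are all genes with more than 3 counts in both stages and orange squares the housekeeping families, with filled symbols for TMM scaling and open symbols for quantile normalisation. With TMM the medians climb from -1.04 and -1.35 to 2.41 and 2.55, and with quantile normalisation they stay between 0.06 and 1.10.

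A second feature concerns genes at 0. For 5695 genes the mean over the morula libraries, control and knockout together, was at least 50 counts. Of these, 289 (5.07%) had no count in any of the 6 ExE libraries, control and knockout together. The reverse was found for 16 of 5743 genes (0.279%). The genes at 0 in ExE included 9 of the 235 housekeeping genes with as many morula counts, and 26.6% of them had as the next gene on the chromosome another gene at 0. There were 7 runs of 4 or more such neighbours with 52 genes in all, of which the longest, on chromosome 14 from 50824059 to 55024138 (mm10), held 21 genes from Tep1 to Ngdn. That run includes genes that every cell uses, such as Psmb5 of the proteasome and Dad1 of the oligosaccharyltransferase complex. A gene at 0 in ExE is therefore only described as listed at 0. In addition, of 5692 autosomal genes with at least 50 counts in each stage, 35 had over 95% of their counts from 1 parent in ExE while both parents contributed 20% or more in morulae, and 8 showed the reverse.

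The tissue labels were checked against lists of marker genes. Summed over 6 ectoplacental markers, the level was 24.2 and 24.4 CPM in the morula libraries and 3679 and 7049 CPM in the ExE libraries. The ExE sum is nearly all that of Phlda2, Plac1 and Ascl2, while Tpbpa, Fosl1 and Flt1 averaged 0.295, 1.79 and 1.03 CPM in ExE. Of 8 trophectoderm markers, Krt8, Krt18 and Tfap2c rose and the other 5 fell. Their sum, 1535 and 1445 CPM in morulae and 9624 and 10784 CPM in ExE, is mostly that of Krt8 and Krt18. The sum of 6 detected pluripotent-cell markers went the other way, from 274 and 384 CPM to 4.39 and 3.28 CPM. Short marker sets of tissues beside the ExE had low sums there. Visceral endoderm, with 4 of its 8 detected members at 0, summed to 5.55 and 2.98 CPM. Epiblast and mesoderm summed to 9.65 and 0.894 CPM and decidua to 5.26 and 1.49 CPM. In morulae these sets summed to 83.8 and 55.5, 13.0 and 9.16, and 26.5 and 7.64 CPM, so low sums do not show that a tissue was absent. Longer lists of the same tissues summed to 564 and 478, 698 and 459, and 30.4 and 6.56 CPM in ExE. Cited1 (log2 change 1.79) was the only rise in the longer visceral endoderm list. No haemoglobin gene had a count in any embryo library, which says nothing about their expression. The endothelial markers summed to 1.46 CPM in ExE replicate 1 and 33.1 CPM in replicate 2, nearly all of it from 1 gene, Cdh5. Bmp4, a signal made by the ExE, was listed at 0 in both ExE libraries and had only 2 counts in morulae, so it could not be tested.

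After filtering, 9977 genes were tested. At a Benjamini-Hochberg adjusted p under 0.05 in edgeR's quasi-likelihood test, 2776 genes were higher in ExE (27.8%) and 3959 were lower (39.7%), so that 67.5% were called in either direction. The 2 ExE values lay entirely outside the 2 morula values for 84.6% of the tested genes. The median log2 change was -0.28. It was -0.95 when libraries were scaled by their totals alone, with 1551 genes called higher and 5422 lower, and 0.20 with quantile normalisation, with 3343 higher and 2709 lower. The balance between rises and falls depended on the scaling. Of the genes called lower, 933 were listed at 0 in both ExE libraries, and of those called higher, 56 were listed at 0 in both morula libraries. Among the 8503 genes above 3 counts in both stages, 2633 rose and 2630 fell.

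**Figure D2:**
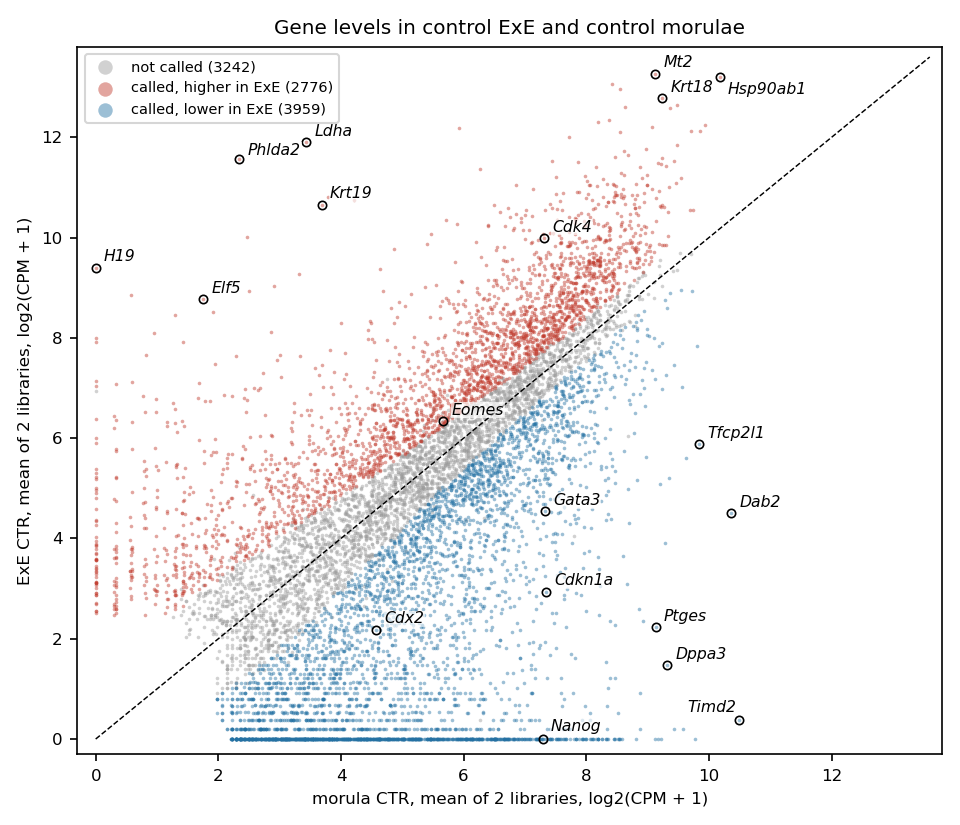
Mean level of each tested gene in morula CTR (horizontal axis) and ExE CTR (vertical axis), both as log2(CPM + 1) of 2 libraries, with genes called higher in ExE in red, called lower in blue and not called in grey. The dashed line marks equal levels, circled genes are named in the text, and the blue band at the bottom holds genes listed at 0 in ExE.

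Among the largest rises, H19, an imprinted noncoding RNA that lies next to Igf2 (chromosome 7, 142575530 to 142578146, mm10), had no count in either morula library and stood at 584 and 764 CPM in ExE. That is at least 922-fold higher, measured against 3 counts over the morula group (edgeR's quasi-likelihood test, Benjamini-Hochberg adjusted p = 5.32e-09). 99.8% of its ExE counts were maternal. The potassium channel gene Kcnk1 rose from 0 to 232 and 274 CPM (at least 346-fold) and the LIM-domain gene Fhl1 to 289 and 192 CPM (at least 330.0-fold). Both ExE libraries lay far above both morula libraries for these genes.

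Phlda2 (chromosome 7, 143501545 to 143503145), a maternally expressed imprinted gene that limits placental growth, was at 5.59 and 2.55 CPM in morulae and 2218 and 3857 CPM in ExE. Its log2 change of 9.51 (SE 0.43, edgeR adjusted p = 3.53e-07) was the largest among genes with more than 3 counts in both stages that the naming rule selected. Aif1l, related to an actin-binding protein, had 2 counts in morulae and reached 389 and 539 CPM in ExE, a ratio of 952 (95% interval 263 to 7867) from counting alone. Cdca7l, related to a MYC target, had 1 count in morulae and 114 and 154 CPM in ExE, a ratio of 549 (95% interval 98.3 to 21718). For both genes the interval is wide because the morula value rests on so few counts.

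Other members of the leading rises differed between the 2 ExE libraries. Vav3, an exchange factor for small GTPases, was at 75.1 and 205 CPM in ExE replicates 1 and 2 and Nrk, an X-linked kinase of the spongiotrophoblast, at 62.9 and 199 CPM. Olr1, a scavenger receptor, was at 19.6 and 98.1 CPM. None of the 3 had a count in morulae, and all 3 were called (adjusted p = 0.00192, 0.00543 and 0.0179 in edgeR). None of them was called once all 10 embryo libraries shared the estimate of the spread. Fndc3c1, an X-linked gene, was at 79.8 and 47.1 CPM in ExE and at 0 in morulae.

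Genes of the trophoblast stem cell state moved in both directions. Of 19 tested members of the ExE and trophoblast stem list, 10 rose and 5 fell, against 27.8% and 39.7% of all genes, with a median log2 change of 0.69 against -0.28. Without ExE CTR replicate 1 these were 10 and 8 (median 0.36), and without replicate 2 they were 11 and 6 (median 1.37). Elf5, which encodes an ETS factor that locks in the trophoblast fate, was at 3.73 and 1.02 CPM in morulae and 378 and 498 CPM in ExE, a log2 change of 7.47 (SE 0.35, edgeR adjusted p = 1.50e-08). Its promoter window is shown because Elf5 rose most of the transcription factors on this list. The 300 bases from 250 before to 50 after the first of the 2 starts that RefSeq lists (GRCm38.p6, chr2:103411848-103412147, plus strand) are printed 5′ to 3′. Capitals mark the only match, on the minus strand, to GGAATG, the letters bound by TEAD factors, which act in trophectoderm. Searched on both strands, these letters occur in 14.7% of the 32851 promoter windows of the same length, and the match is a description, not a site shown to be used. Of 16 genes of this list with a window, Elf5 alone held them at any start (6.25%, against 16.6% of all 27025 symbols).
Elf5: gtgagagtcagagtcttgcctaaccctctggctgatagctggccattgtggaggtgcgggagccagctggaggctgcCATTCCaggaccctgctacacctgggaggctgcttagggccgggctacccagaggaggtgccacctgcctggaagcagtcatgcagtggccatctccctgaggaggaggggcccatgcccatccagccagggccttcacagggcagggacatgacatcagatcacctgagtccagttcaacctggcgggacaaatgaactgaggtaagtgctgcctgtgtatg

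Ets2, another ETS factor of the stem cells, rose from 4.66 and 3.05 CPM to 204 and 194 CPM, and Bmp8b, a BMP ligand of the ExE, from 5.12 and 6.11 CPM to 167 and 144 CPM. The 2 stages were thus far apart in all 4 libraries, with log2 changes of 5.66 (SE 0.30) and 4.78 (SE 0.29). The AP-2 factor Tfap2c, already well expressed in morulae, rose from 164 and 151 CPM to 609 and 778 CPM. Wnt7b, a WNT ligand needed in placental development, rose from 16.3 and 14.8 CPM to 84.2 and 62.0 CPM. Id2, an inhibitor of basic helix-loop-helix factors, differed between the ExE libraries, with 1175 and 463 CPM against 166 and 171 CPM in morulae (log2 change 2.28, SE 0.47, edgeR adjusted p = 0.00941). Its call was lost without a filter on low counts and with quantile normalisation.

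Cdx2, the homeobox factor that starts the trophectoderm programme, fell from 22.8 and 22.9 CPM to 4.68 and 2.39 CPM, a log2 change of -2.68 (SE 0.49, edgeR adjusted p = 3.90e-04). Sox2, which is also active in trophoblast stem cells, fell from 9.78 and 11.2 CPM to 2.63 and 0 CPM. Sox21 fell by 2.96 on the log2 scale, a call lost with quantile normalisation. Sox2 lost its call with quantile normalisation and without either morula library. Eomes, the T-box factor of the stem cells, was not called: it stood at 51.2 and 48.4 CPM in morulae and at 129 and 31.9 CPM in ExE replicates 1 and 2 (log2 change 0.69, SE 0.66, edgeR adjusted p = 0.396). The orphan receptor gene Esrrb was likewise at 62.9 and 96.2 CPM against 38.0 and 2.68 CPM and was not called. For Eomes the morula values lay between the 2 ExE values. The FGF receptor gene Fgfr2 (148 and 131 CPM against 158 and 96.9 CPM) and the ERK phosphatase gene Dusp6 (7.92 and 16.3 CPM against 21.0 and 1.49 CPM) overlapped between the stages and were not called.

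Of 21 tested trophectoderm genes, 7 rose and 11 fell, against 27.8% and 39.7% of all genes, with a median of -1.43. Among the 18 members above 3 counts in both stages, 7 rose and 8 fell and the median was 0.10. The rises included the simple-epithelial keratins. Krt18 went from 626 and 579 CPM to 6729.6 and 7368 CPM, Krt8 from 264 and 240.3 CPM to 2205 and 2573 CPM and Krt19, on the list of junction and epithelial genes, from 7.92 and 15.8 CPM to 1327 and 1899.6 CPM. Their log2 changes were 3.55 (SE 0.16), 3.24 (SE 0.16) and 7.10 (SE 0.31). The claudin gene Cldn6 rose from 148 and 124 CPM to 1045 and 841 CPM and the zinc-finger factor Gata2 from 3.26 and 5.60 CPM to 41.2 and 67.4 CPM.

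The falls in this list held several genes with large counts in morulae. Dab2, an endocytic adaptor that was among the 5 genes with the most counts in morulae, dropped from 1301 and 1329 CPM to 27.5 and 15.8 CPM, a log2 change of -5.92 (SE 0.24, edgeR adjusted p = 7.20e-09). Ptges, which makes prostaglandin E2, dropped from 562 and 556 CPM to 2.92 and 4.47 CPM. The transcription factors Gata3 (160.2 and 157 CPM to 23.1 and 21.5 CPM) and Tead4 (189 and 184 CPM to 38.0 and 20.9 CPM) fell as well, by log2 changes of -2.83 and -2.66. So did 2 genes of blastocoel formation, the water channel Aqp3 (82.0 and 84.0 CPM to 4.39 and 9.84 CPM) and the sodium pump subunit Atp1b1 (log2 change -1.43). The call of Atp1b1 was lost with quantile normalisation, with paternal counts alone and in the test against a 2-fold change. Gata2 and Gata3, which act together in trophoblast, therefore moved in opposite directions. Lrp2, a large endocytic receptor, went from 723 and 465 CPM to being listed at 0, and all 6 of its neighbouring genes had ExE counts.

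**Figure D3:**
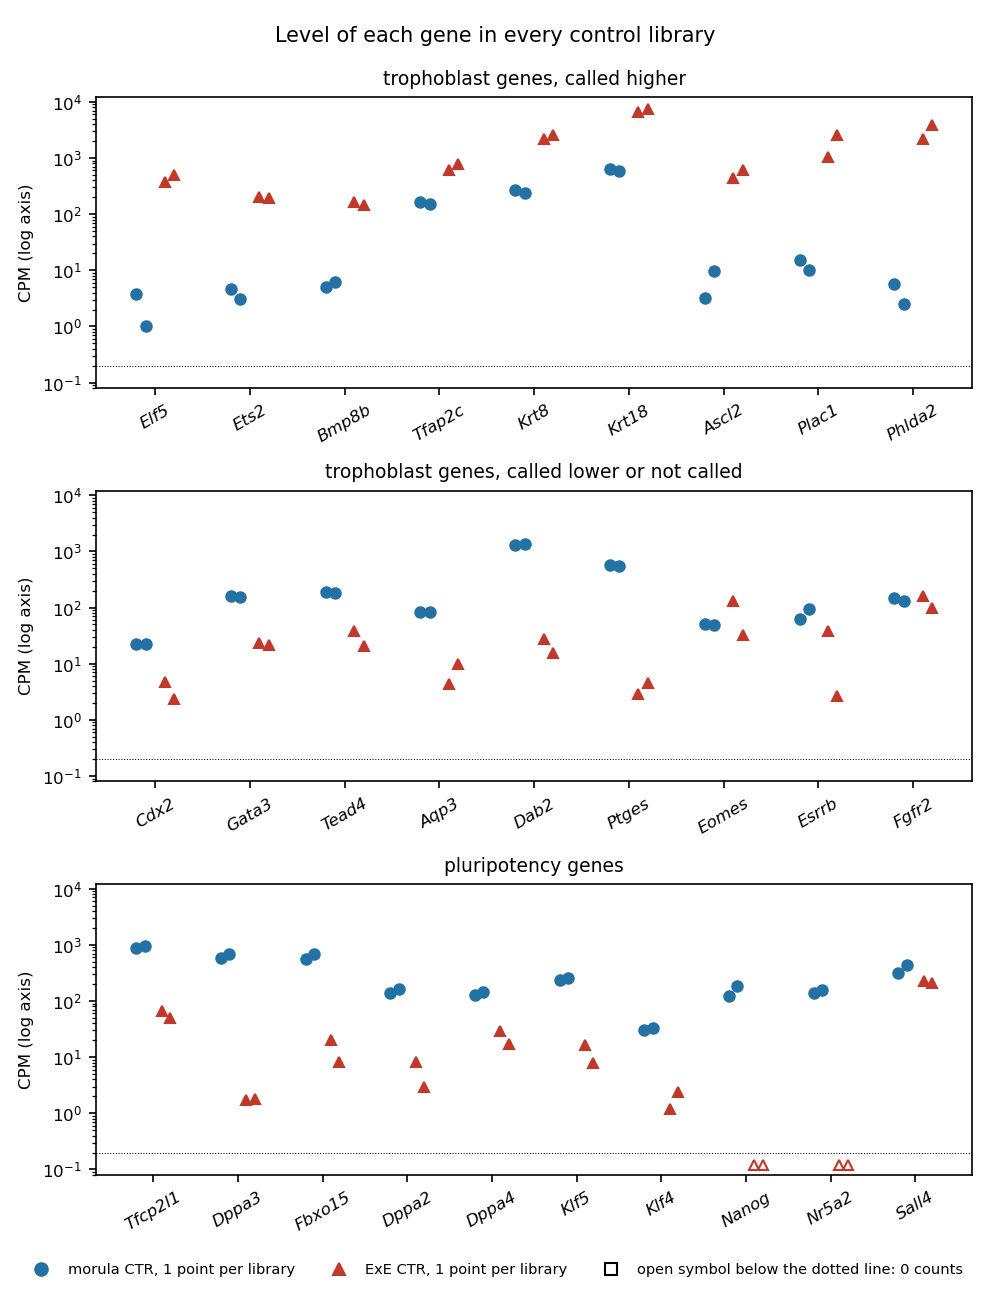
Level of each gene in every control library (vertical log axis, CPM), with blue circles for the 2 morula CTR libraries and red triangles for the 2 ExE CTR libraries, and open symbols below the dotted line for 0 counts. Each top-panel gene has both ExE values above both morula values; in the middle panel Eomes and Fgfr2 overlap between the stages; in the bottom panel each gene is lower in ExE, with Nanog and Nr5a2 listed at 0.

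The 5 genes of ectoplacental cone and spongiotrophoblast that could be tested were all higher, against 27.8% of all genes. Their median log2 change of 6.73 was the highest of the lists described here. Of the 19 members of that list, 8 had a count and the other members could not be assessed. A gene that is silent in morulae passes the filter only where it is high in ExE, so this count gives no independent support for the direction. Ascl2, a maternally expressed imprinted factor that the spongiotrophoblast needs, rose from 3.26 and 9.67 CPM to 436 and 604 CPM (log2 change 6.35, SE 0.35). Plac1, an X-linked gene of placental growth, rose from 15.4 and 10.2 CPM to 1023 and 2584 CPM and the gap junction gene Gjb5 from 128 and 130.3 CPM to 1164 and 1842 CPM. Peg10, a paternally expressed gene derived from a retrotransposon, rose from 0.931 and 1.02 CPM to 80.7 and 136 CPM, and none of its counts was maternal. Each of these genes, Phlda2 included, was higher in ExE replicate 2 than in replicate 1. Tpbpa, the standard marker of spongiotrophoblast, was at 0 in morulae and averaged 0.295 CPM in ExE, too low to be tested. The giant-cell factor Hand1 was at 11.2 and 37.2 CPM in morulae and 50.3 and 79.6 CPM in ExE, a call that was lost in 8 of 18 alternatives.

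Imprinted genes as a class included both rises and falls. Among 24 tested genes of the list controlled by DNA methylation, 11 rose and 7 fell (median 0.70), against 27.8% and 39.7% of all genes. The median was -0.32 without ExE CTR replicate 1 and 1.35 without replicate 2. In addition, 9 rose and 10 fell when libraries were scaled by totals, and 6 rose and 8 fell in paternal counts alone. A cluster on distal chromosome 7 held 6 of the rises: H19, Igf2, Cdkn1c, Phlda2, Slc22a18 and Ascl2. Igf2, the fetal growth factor, went from 2.33 and 1.02 CPM to 246 and 234 CPM (log2 change 7.10, SE 0.33), with 23.4% of its ExE counts maternal. Cdkn1c, a brake on the cell cycle, rose from 6.99 and 7.13 CPM to 188 and 214 CPM, with 99.9% maternal counts in ExE. Slc22a18, a transporter gene next to it, rose from 0.931 and 0.509 CPM to 32.5 and 59.0 CPM. The falls included Impact (191 and 154 CPM to 14.6 and 13.7 CPM), a regulator of translation, and Gnas, a G-protein subunit gene, with 53.1 and 57.5 CPM in morulae and 2 counts in ExE, a ratio of 0.00535 (95% interval 0.000644 to 0.0195).

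Genes imprinted through maternal H3K27me3 in place of DNA methylation are known for paternal expression in preimplantation embryos, and some keep it in the placenta. Of 6 tested members, 4 rose and Xist fell, against 27.8% and 39.7% of all genes. Sfmbt2, a Polycomb-related gene needed for trophoblast upkeep, rose from 58.2 and 85.0 CPM to 309.6 and 319.6 CPM and stayed paternal, with 0.342% maternal counts in morulae and 0.282% in ExE. Slc38a4, an amino acid transporter, rose from 39.1 and 41.7 CPM to 181 and 302 CPM, with 1.20% and 0.184% maternal counts. Gab1, an adaptor of receptor signalling, rose from 175 and 235 CPM to 418 and 497 CPM, while its maternal share went from 36.2% to 17.2%. Jade1, a subunit of a histone acetyltransferase complex, rose by a smaller amount (68.5 and 77.9 CPM to 118 and 146 CPM) and lost its call with scaling by library totals. Smoc1 was not called (14.0 and 15.8 CPM against 24.6 and 24.2 CPM), and its maternal share was 34.4% in morulae and 2.42% in ExE. In maternal counts alone Smoc1 was called lower in ExE (log2 change -3.10).

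Genes of glycolysis and lactate export were mostly higher in ExE: 14 of 18 tested members rose and 1 fell, against 27.8% and 39.7% of all genes, with a median log2 change of 3.63. Slc2a1, the glucose transporter, rose from 3.73 and 5.09 CPM to 108 and 143 CPM, and Gpi1, the second enzyme, from 122 and 103 CPM to 1229 and 1092 CPM. Pgam1, a mutase of the lower pathway, rose from 23.3 and 19.9 CPM to 339 and 286 CPM and Gapdh from 23.3 and 18.3 CPM to 262 and 239 CPM. No pair of stage values overlapped for these genes. For Gapdh and Pgam1 the counts came nearly all from 1 parent in both stages (98.8% and 98.9% maternal for Gapdh, 2.25% and 0% for Pgam1); both genes have processed copies, so their counts are uncertain. Hk1, Hk2 and Slc2a3 were not called. Eno1 was listed at 0 in ExE against 81.0 and 75.9 CPM in morulae, with counts in ExE for all 6 of its neighbours.

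The largest rise among members with morula counts was that of Ldha, the subunit of lactate dehydrogenase that favours lactate formation. It was at 14.0 and 5.60 CPM in morulae and 4183 and 3472 CPM in ExE, a log2 change of 8.58 (SE 0.30, edgeR adjusted p = 5.21e-09). The lactate exporter Slc16a3 had no count in morulae and 91.8 and 72.5 CPM in ExE (at least 113-fold), and its relative Slc16a1 rose from 40.5 and 40.2 CPM to 525 and 506 CPM. Pdk1, which diverts pyruvate from the mitochondria, rose from 4.19 and 1.53 CPM to 218 and 137 CPM (log2 change 5.91, SE 0.41). The promoter windows of Ldha and Slc16a3 are shown because these genes led the pathway. Each runs from 250 bases before to 50 after a RefSeq start (GRCm38.p6; Ldha chr7:46845554-46845853, the first of 2 starts; Slc16a3 chr11:120948817-120949116; both on the plus strand), and capitals mark the letters ACGTG on either strand, the core of the element read by hypoxia-inducible factors. The Ldha window holds them 5 times, since each CACGTG counts once per strand, and the Slc16a3 window 2 times. A match was found in 19.6% of all 32851 windows, 2 or more in 8.21% and 5 or more in 0.183%. At any of their starts, 11 of 18 genes of the glycolysis list with a window held it, against 21.8% of all 27025 symbols. So did 11 of 14 genes of the hypoxia list, which holds known targets of hypoxia and whose changes were mixed. The matches are a description, not sites shown to be used. No oxygen level or factor binding was measured, and a role of these factors was not tested.
Ldha: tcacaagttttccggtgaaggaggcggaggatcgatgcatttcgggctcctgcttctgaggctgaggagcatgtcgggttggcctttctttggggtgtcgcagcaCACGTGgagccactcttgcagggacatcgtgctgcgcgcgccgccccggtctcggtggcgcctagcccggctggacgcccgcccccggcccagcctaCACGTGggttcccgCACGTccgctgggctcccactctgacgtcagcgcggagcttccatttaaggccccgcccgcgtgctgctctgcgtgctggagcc
Slc16a3: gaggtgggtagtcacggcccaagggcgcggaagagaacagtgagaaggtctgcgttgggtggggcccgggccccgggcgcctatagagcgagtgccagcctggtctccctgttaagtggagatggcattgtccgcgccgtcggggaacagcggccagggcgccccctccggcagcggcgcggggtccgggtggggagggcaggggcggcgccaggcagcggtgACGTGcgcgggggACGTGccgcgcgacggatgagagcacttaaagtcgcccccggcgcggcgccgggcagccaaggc

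Known targets of hypoxia were mixed, with 6 of 14 higher and 4 lower (median 0.02), against 27.8% and 39.7% of all genes. Under scaling by library totals 5 were higher and 6 lower. Ndrg1, a stress-response gene of trophoblast, rose from 78.7 and 67.2 CPM to 997 and 940.4 CPM (log2 change 3.73, SE 0.17), and Ankrd37 rose from 1.40 and 5.09 CPM to 103 and 127 CPM. The mitophagy gene Bnip3 rose from 159.8 and 174 CPM to 483 and 317 CPM, but was not called with quantile normalisation. Ddit4, an inhibitor of mTOR, fell to 3 counts in the ExE libraries together (log2 change -5.66).

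Genes of oxidative phosphorylation and of the ribosome also rose more often than they fell, against 27.8% and 39.7% of all genes. Of 65 tested members of the respiratory chain list 51 rose and 10 fell (median 1.64), and of 78 ribosomal proteins 44 rose and 21 fell (median 1.12). With scaling by library totals these counts were 44 and 14, and 36 and 29. Cox7b, a subunit of cytochrome oxidase, rose to 2094 and 2114 CPM (log2 change 4.19) and Atp5b of the ATP synthase from 319 and 340.1 CPM to 5609 and 4734 CPM. Sdhb and Sdhc of complex II were both listed at 0 in ExE. Rpl32 rose from 85.7 and 93.2 CPM to 1553 and 1639.9 CPM. For Rps29 the sum rose from 41.9 and 40.2 CPM to 862 and 1002 CPM, while the maternal counts alone fell, since its maternal share was 24.9% in morulae and 0.0158% in ExE. Ribosomal protein genes have many processed copies, so their counts are uncertain.

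The 5 genes that took the most counts in each stage, a ranking not corrected for transcript length, were mostly different ones. In morulae they were Timd2, a membrane receptor, then Dab2, the chaperone Hsp90ab1, the nucleotide kinase Nme1 and the initiation factor Eif1a. Timd2 went from 1349.7 and 1537 CPM to 2 counts in ExE, and only 1 of its 6 neighbours had counts there. In ExE they included Hsp90ab1 (10845 and 7951 CPM), Mt2 (8869 and 10901 CPM), the peroxide-reducing enzyme gene Prdx1 (8238 and 8863 CPM) and Krt18. Hsp90ab1 was on both lists, with 1064 and 1245 CPM in morulae and a log2 change of 3.03 (SE 0.19) that became 0.06 and lost its call with quantile normalisation. Nme1 and Eif1a were called higher in ExE with TMM scaling (log2 changes 2.31 and 2.28) and lower with quantile normalisation (-0.43 and -0.40).

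Mt2, which encodes a metallothionein that binds zinc and other metals, rose from 542 and 569 CPM to 8869 and 10901 CPM, a log2 change of 4.15 (SE 0.17, edgeR adjusted p = 5.21e-09). It stayed called with quantile normalisation (log2 change 1.83). Prdx1 rose from 331 and 354 CPM to 8238 and 8863 CPM. The Mt2 promoter window (RefSeq, GRCm38.p6, chr8:94172368-94172667, plus strand, 250 bases before to 50 after the start) is shown because it is a textbook metal-responsive promoter of 1 of the most counted genes in ExE. Capitals mark the letters TGCACNC, the core of the metal response element, and the related TGCGCNC, on either strand. Each was found 2 times here, and at least once in 12.6% and 15.4% of all windows. No metal level or factor binding was measured.
Mt2: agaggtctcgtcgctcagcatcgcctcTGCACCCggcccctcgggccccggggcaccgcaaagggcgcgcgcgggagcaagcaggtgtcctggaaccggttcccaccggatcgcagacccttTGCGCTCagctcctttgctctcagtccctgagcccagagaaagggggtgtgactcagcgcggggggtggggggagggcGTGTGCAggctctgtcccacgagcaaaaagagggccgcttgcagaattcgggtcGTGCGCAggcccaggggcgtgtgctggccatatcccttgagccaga

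Genes of the cell cycle were mostly higher in ExE, with 18 of 24 tested members rising and 5 falling (median 1.24), against 27.8% and 39.7% of all genes. With scaling by library totals 13 rose (median 0.57), and with quantile normalisation 13 rose (median 0.67). Cdk4, the kinase of the early cycle, rose from 152 and 162 CPM to 978 and 1063 CPM, and its partner Ccnd3 from 72.7 and 76.9 CPM to 444 and 492 CPM. The mitotic cyclin Ccnb1 rose from 239.9 and 259.6 CPM to 1183 and 1377 CPM. The log2 changes of Ccnd3 and Ccnb1 were 2.65 (SE 0.17) and 2.36 (SE 0.16), and for all 3 genes no library of one stage reached into the range of the other. Among the 5 falls, Ccnd2 and Ccne1 were listed at 0 in ExE (Ccne1 from 42.4 and 47.9 CPM), and Ccng1 and Cdkn1a are also targets of p53. Ccnd2 lost its call with quantile normalisation.

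Targets of p53, the factor that responds to DNA damage, were mostly lower in ExE: 14 of 17 tested members fell and 1 rose. Over all genes 39.7% fell and 27.8% rose. The median of the p53 targets was -1.996, and a majority fell under each of the 18 alternatives. Eda2r, a receptor of the tumour necrosis factor family, fell from 292 and 218 CPM to 2.92 and 6.86 CPM (log2 change -5.70, SE 0.34, edgeR adjusted p = 8.21e-08). Cdkn1a, the inhibitor p21 that halts the cycle, fell from 183 and 139 CPM to 3.51 and 9.84 CPM and the autophagy regulator Trp53inp1 from 295 and 202 CPM to 17.5 and 17.9 CPM. Both stages were clearly apart for all 3 genes. Pmaip1, a trigger of apoptosis, fell from 283 and 182 CPM to 23.7 and 16.7 CPM and Ccng1 from 771 and 613 CPM to 158 and 189.9 CPM. The single rise was that of Bax, an effector of apoptosis, from 99.7 and 95.7 CPM to 350.2 and 364 CPM. Plk2 and Perp were not called.

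Genes of pluripotency fell: 18 of 21 tested members were lower and 1 was higher, against 39.7% and 27.8% of all genes. The median was -4.88. A gene silent in ExE passes the filter only where it is high in morulae, so the count of falls gives no independent support for the direction. Of the 14 members with more than 3 counts in both stages, 11 fell and the median was -4.05. Tfcp2l1, a factor of the naive state, fell from 890.0 and 944 CPM to 65.5 and 50.7 CPM, a log2 change of -3.98 (SE 0.18, edgeR adjusted p = 6.77e-09). Dppa3, a maternal factor that guards DNA methylation, fell from 592 and 681 CPM to 1.75 and 1.79 CPM (log2 change -8.45, SE 0.25) and the F-box gene Fbxo15 from 563 and 683 CPM to 20.2 and 8.05 CPM. Each of these 3 genes kept counts in both ExE libraries.

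The Krüppel-like factors and the DPPA pair followed, at lower levels. Klf5, which acts in both pluripotent cells and trophectoderm, fell from 235 and 259.6 CPM to 16.4 and 7.75 CPM and Klf4 from 30.7 and 32.6 CPM to 1.17 and 2.39 CPM. Dppa2 fell from 141 and 164 CPM to 8.19 and 2.98 CPM and its chromatin partner Dppa4 from 126 and 144 CPM to 28.9 and 17.0 CPM. For Dppa4 the remaining ExE counts were 1.28% maternal against 57.8% in morulae. Sall4, which trophoblast stem cells also express, fell the least (321 and 440.4 CPM to 232 and 211 CPM, log2 change -0.78), and Utf1 was the only member to rise (38.2 and 59.1 CPM to 179 and 179 CPM). Of the whole Klf family, 7 of 10 tested members fell and Klf6 rose, against 39.7% and 27.8% of all genes.

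There were 4 members listed at 0 in ExE. Nanog, the central factor of the naive epiblast, was at 123 and 187 CPM in morulae, at least 348-fold more than 3 counts over the ExE group. Nr5a2, a nuclear receptor that activates the embryonic genome, was at 139 and 157 CPM (at least 334-fold) and Tdh, a threonine-degrading enzyme, at 64.7 and 121 CPM (at least 207-fold). All 6 neighbouring genes of these 3 had ExE counts, and 2 of the 6 neighbours of Lin28a did. Counts at neighbours do not show whether a gene at 0 lacked RNA or lacked assigned reads. Eno1 was also listed at 0 with ExE counts for all 6 of its neighbours. Pou5f1 had no count in any embryo library, which says nothing about its expression.

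Genes of the primitive endoderm, the other lineage of the inner cell mass, fell in all 9 cases that could be tested. Over all genes 39.7% fell. The median of the list was -4.56, and -3.97 with members at 0 set to their bound. Of 14 members these 9 passed the filter, which a gene silent in ExE does only where it is high in morulae. The count thus gives no independent support for the direction. The 7 members above 3 counts in both stages also fell. Col4a1, a collagen of basement membranes, fell from 56.4 and 66.7 CPM to 1.46 and 1.79 CPM and the laminin gene Lamc1 from 70.3 and 64.1 CPM to 3.80 and 1.79 CPM. Lamb1 kept more of its level (55.9 and 84.5 CPM to 24.6 and 24.4 CPM). Gata6, the factor that specifies this lineage, went from 141 and 155 CPM to being listed at 0. Across 14 tested genes of the basement membrane and matrix, 11 fell and 3 rose, against 39.7% and 27.8% of all genes. The laminin receptor subunit Itga6 fell from 89.0 and 74.3 CPM to 10.5 and 3.58 CPM and Itgb5, a vitronectin receptor subunit, fell by 2.19 on the log2 scale.

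Germline genes that DNA methylation is known to silence after implantation were also lower. Of 19 tested members 15 fell and Tdrd1 was called higher (median -3.13), against 39.7% and 27.8% of all genes. Among the 16 members above 3 counts in both stages, 12 fell and 1 rose. The call of Tdrd1 was lost in DESeq2's Wald test and without either morula library. Sycp3, of the synaptonemal complex of meiosis, fell from 109.9 and 108 CPM to 5.26 and 1.49 CPM, and Hormad1, its partner on meiotic chromosomes, from 82.9 and 51.9 CPM to 0.585 and 1.19 CPM. Dpep3, a membrane dipeptidase of the testis, fell from 69.4 and 67.7 CPM to 0.585 and 0.894 CPM. Each of these kept 5 to 23 counts in ExE. Of 20 oocyte genes with a count 8 could be tested, and 6 fell and 1 rose. With quantile normalisation 3 fell and 2 rose. Of the 3 genes above 3 counts in both stages, 1 fell and 1 rose. Genes silent in ExE pass the filter only where they are high in morulae. The germline and oocyte counts therefore give no independent support for the direction. Zp3, of the egg coat, fell from 36.3 and 43.3 CPM to 0.877 and 1.49 CPM, and Padi6, of the subcortical complex, from 45.2 and 62.1 CPM to being listed at 0. Among genes listed at 0 in ExE, Pramel6, a ligase adaptor of early embryos, had the highest bound, from 841 and 907 CPM (at least 1969.5-fold lower). Lrp2 (at least 1354-fold), Pramel7 (543 and 606 CPM, at least 1294-fold) and the phosphatase gene Alppl2 (473 and 644 CPM, at least 1253-fold) followed.

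**Figure D4:**
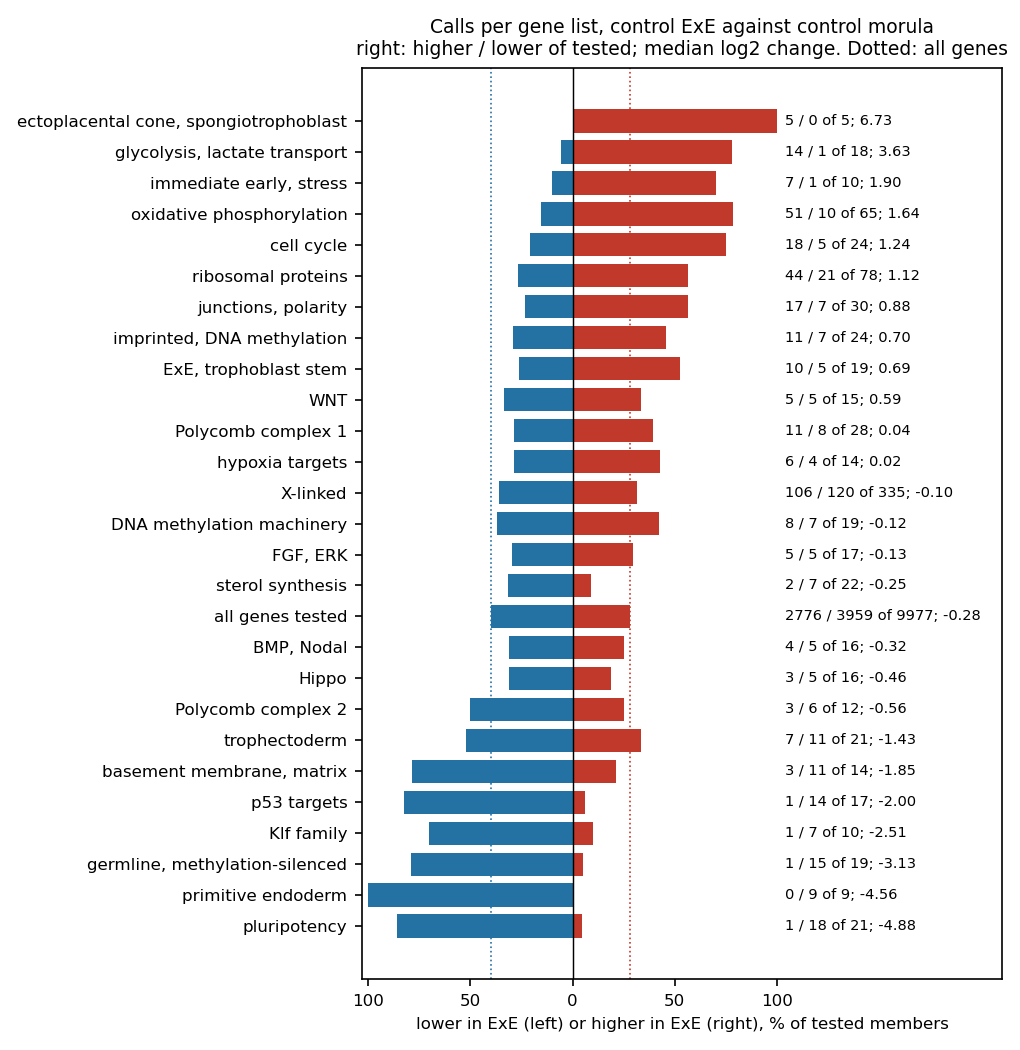
Share of tested members of each gene list called higher in ExE (red, to the right) or lower (blue, to the left), in percent, with the counts and the median log2 change printed beside each bar and lists ordered by that median. Dotted lines mark the shares over all genes tested, 27.8% higher and 39.7% lower; glycolysis has 14 of 18 members higher and pluripotency 18 of 21 lower.

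Junction and polarity genes rose in 17 of 30 tested cases and fell in 7 (median 0.88), with 11 and 9 under scaling by library totals. Over all genes 27.8% rose and 39.7% fell. Next to the keratins and Cldn6, 3 members chosen after their values were seen were these. The desmosomal gene Jup rose from 34.9 and 17.3 CPM to 71.6 and 66.2 CPM and the adherens junction gene Cdh1 from 76.4 and 79.9 CPM to 113 and 113 CPM. Jup lost its call with scaling by library totals and in the test against a 2-fold change. The log2 change of Cdh1 was 0.54, and -0.14 under scaling by library totals. Its call was lost in 8 of 18 alternatives, among them DESeq2's Wald test and each morula library left out. Ocln of the tight junction fell from 112 and 110.5 CPM to 21.0 and 8.35 CPM. P-cadherin, Cdh3, a placental cadherin, rose from 1.40 and 2.55 CPM to 12.6 and 19.7 CPM.

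In the FGF and ERK list 5 of 17 members rose and 5 fell, in the WNT list 5 and 5 of 15, in the BMP and Nodal list 4 and 5 of 16 and in the Hippo list 3 and 5 of 16, against 27.8% and 39.7% of all genes. These counts moved with the scaling: with library totals the FGF and ERK list had 4 rises and 9 falls and the Hippo list 2 and 11, and with quantile normalisation the FGF and ERK list had 6 and 1 and the WNT list 9 and 3. Single members moved far. Myc, a growth factor target, rose from 2.79 and 0.509 CPM to 60.2 and 99.6 CPM (log2 change 5.52, SE 0.52), and Tcf7l1, a WNT repressor, from 1 count to 51.2 and 56.4 CPM. The BMP receptor genes Bmpr1a (126 and 102 CPM to 27.2 and 17.9 CPM) and Bmpr2 (65.2 and 47.3 CPM to 12.3 and 16.1 CPM) fell. In the Hippo pathway, Tead2 rose from 17.2 and 9.16 CPM to 72.5 and 57.8 CPM, whereas the coactivator Wwtr1 fell from 233 and 266 CPM to 76.3 and 54.6 CPM and the upstream regulator Nf2 from 36.8 and 40.7 CPM to 2.05 and 2.09 CPM.

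The immediate early and stress genes rose in 7 of 10 tested cases and fell in 1 (median 1.90), against 27.8% and 39.7% of all genes. Without morula CTR replicate 2, 4 rose. Among the 8 members above 3 counts in both stages, 5 rose and 1 fell. A gene silent in morulae passes the filter only where it is high in ExE. The count of rises thus gives no independent support for the direction. Fos, a rapidly induced partner of AP-1, was at 50.3 and 49.4 CPM in morulae and 175 and 244 CPM in ExE. Egr1, a zinc-finger factor induced by ERK, had no count in morulae and 47.4 and 10.4 CPM in ExE replicates 1 and 2, and the stress sensor Gadd45b rose from 32.6 and 15.3 CPM to 152 and 113 CPM. Among nutrient transporters 6 of 17 rose and 8 fell (35.3% and 47.1%, against 27.8% and 39.7% of all genes), and 8 rose and 4 fell with quantile normalisation. The cationic amino acid transporter Slc7a1 rose from 5.12 and 4.58 CPM to 42.7 and 43.5 CPM and the shared heavy chain Slc3a2 from 152 and 168 CPM to 383 and 452 CPM. Of 22 tested genes of sterol synthesis 2 rose and 7 fell, but 9 rose and 3 fell without morula CTR replicate 1 (median 0.42, against -0.25 with it). Hmgcs1, the entry enzyme, went from 231 and 132 CPM to 5.26 and 4.17 CPM. The immunoproteasome subunit Psmb9 fell from 268 and 270.3 CPM to 18.4 and 16.4 CPM.

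Of 19 tested genes of DNA methylation 8 rose and 7 fell, against 27.8% and 39.7% of all genes. Dnmt3b, which methylates DNA anew after implantation, rose from 102 and 82.0 CPM to 647 and 411 CPM (log2 change 2.52, SE 0.23, edgeR adjusted p = 3.65e-06), and the maintenance enzyme Dnmt1 from 17.7 and 14.3 CPM to 88.3 and 49.2 CPM. Tet2, which oxidises methylcytosine, fell from 237 and 215 CPM to 7.60 and 5.37 CPM and its relative Tet1 from 95.5 and 103 CPM to 41.8 and 31.9 CPM. Dnmt1 and Tet1 were chosen after their values were seen. Zfp57, which protects imprints from demethylation, fell from 66.1 and 88.1 CPM to 11.7 and 5.96 CPM, and Uhrf2, a ring finger relative of the maintenance cofactor, rose from 6.52 and 6.11 CPM to 69.3 and 60.5 CPM.

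Subunits of Polycomb repressive complex 1 (PRC1) rose in 11 of 28 tested cases and fell in 8, and in 6 and 13 with scaling by library totals. Over all genes 27.8% rose and 39.7% fell. Pcgf6, 1 of the 2 genes deleted in the knockout arm, was at 156 and 193 CPM in morulae and 365 and 345 CPM in ExE (log2 change 1.03, SE 0.16), a call lost with scaling by library totals. Pcgf1 had too few counts to be tested. The related subunit Pcgf5 rose from 195 and 181 CPM to 494 and 470.2 CPM and Bcor, the X-linked partner of PCGF1, from 3.73 and 3.05 CPM to 42.1 and 46.2 CPM. For Polycomb repressive complex 2, 3 of 12 rose and 6 fell, against the same shares of all genes. Phf19, an accessory subunit, rose from 0.466 and 2.04 CPM to 31.0 and 13.7 CPM, while its relative Mtf2 fell from 463 and 492 CPM to 157 and 126 CPM, and the cofactor Aebp2 from 96.9 and 99.3 CPM to 21.6 and 23.9 CPM. Ezh2 and Eed, subunits of its core, were not called, although Ezh2 was called lower under scaling by library totals (log2 change -0.49).

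On the X chromosome, 106 of 335 tested genes rose (31.6%) and 120 fell (35.8%), against 27.8% and 39.7% of all genes. The median was -0.10, against -0.28 for all genes. The parental origin of X-linked counts also differed between the stages. Leaving out Xist, 75.6% and 74.4% of X-linked counts were maternal in the morula libraries and 96.0% and 96.5% in the ExE libraries. No Y-linked marker gene reached more than 1 count in any embryo library. These allele-assigned counts do not show the sex of the embryos, and the mix of sexes in each library was not determined. The X-linked shares and the level of Xist were not adjusted for it. Xist, the RNA that coats the silent X, fell from 169 and 94.2 CPM to 80.1 and 40.3 CPM, a call that was lost in 6 of the 17 alternatives that gave it a value. Gata1, an X-linked factor known for its role in blood, rose from 55.9 and 68.7 CPM to 363 and 456 CPM with 100.0% maternal counts in ExE. Cited1, a coactivator of the placenta, rose from 140.2 and 158 CPM to 558 and 474 CPM. The other detected blood markers, Alas2, Cd74 and Lyz2, were at 0 in ExE.

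The same stage comparison in the maternal knockout embryos served as a repeat with separate libraries. Pcgf6 was at 170.3 and 157 CPM in the knockout morulae and at 224, 201, 239 and 196 CPM in the knockout ExE libraries, and Pcgf1 was under 3 CPM in all 10 embryo libraries. These embryos can carry a paternal copy of both genes and the labels do not give the deleted part, so the levels do not check the genotype. In this comparison, 3146 of 10269 tested genes rose (30.6%) and 4088 fell (39.8%), 70.4% in either direction. Of the 2765 control rises tested in both, 97.9% had the same sign and 86.5% were called in the same direction. Of the 3682 control falls, 97.4% had the same sign and 88.8% were called. Elf5 rose by a log2 change of 9.75 in the knockout embryos, Ets2 by 8.83, Ldha by 8.26, Igf2 by 5.92 and Phlda2 by 8.46. Eomes, not called in controls (log2 change 0.69), rose by 4.93. It was not among the genes called in the direct test of the difference between genotypes, given below. Dppa3 changed by -10.13, Tfcp2l1 by -4.31 and Eda2r by -5.11. The knockout ExE libraries were not alike: X-linked maternal shares were 99.9%, 57.0%, 61.3% and 99.8%.

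The difference between the 2 stage changes was tested directly, as an interaction in 1 fit of all 10 libraries. It was called for 38 of 11182 genes (0.34%), 7 with a higher (0.0626%) and 31 with a lower (0.277%) change in controls. Fos changed by 2.07 in controls and by -0.39 in knockouts, with 108 and 86.8 CPM in knockout morulae and 57.6 to 105 CPM in knockout ExE. Cldn6 rose by 2.79 in controls and 4.09 in knockouts, with knockout morulae at 47.6 and 64.7 CPM. Dab2 fell by 5.92 in controls and by 4.52 in knockouts on the log2 scale. The desmosomal cadherin gene Dsc2, singled out after its values were seen, rose from 70.3 and 62.6 CPM to 143 and 166 CPM in controls, and from 0.611 and 0.583 CPM to 105 to 168 CPM in knockouts. Mt1, the neighbour of Mt2, and the matrix gene Sparc, also chosen after their values were seen, differed too: Mt1 rose by 4.12 in controls and 3.12 in knockouts, and Sparc changed by -1.02 and 1.25. The number of such genes was unstable: without the first control morula library it was 1, and without the third knockout ExE library it was 74.

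**Figure D5:**
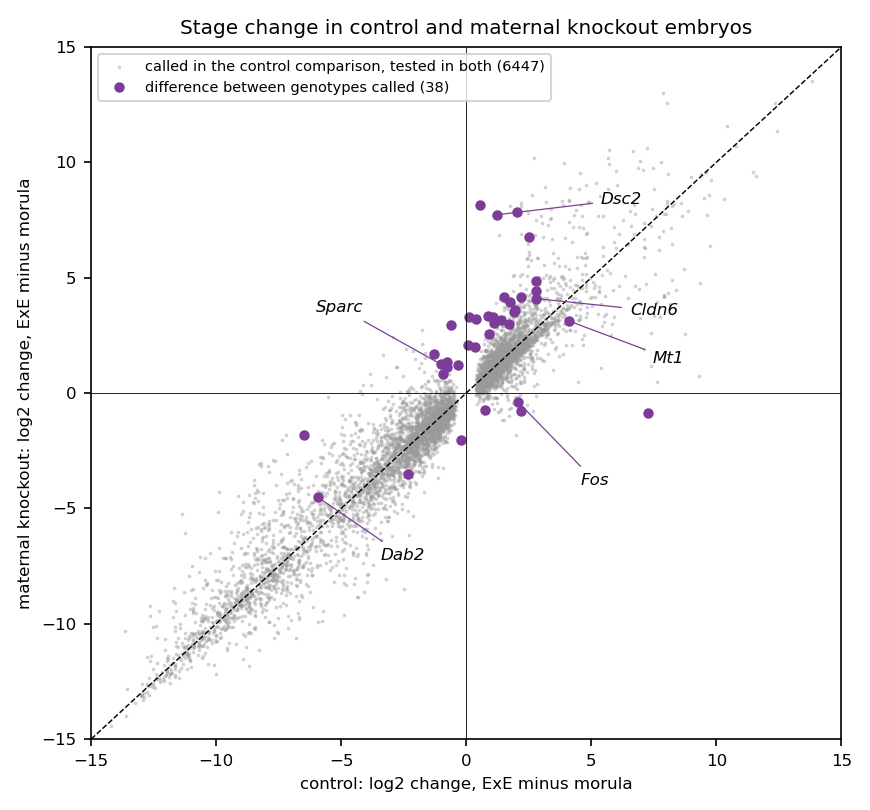
Log2 change between ExE and morula in control embryos (horizontal axis) and in maternal knockout embryos (vertical axis). Grey points are the 6447 genes called in the control comparison and tested in both, purple points the 38 genes whose change differed between the genotypes, and the dashed line marks equal change; most grey points lie in the lower left and upper right of the plot.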

How the data were processed

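RNA-seq libraries were made from polyadenylated RNA with SMART-Seq v4 and Nextera XT, per the labels' protocols, a procedure that does not mark strand. Counts of overlapping or antisense genes and of near-identical copies are therefore uncertain. The deposited files hold raw counts per gene, with 1 maternal and 1 paternal column for each embryo library, per the file headers. The submitters' processing notes name bcl2fastq 2.17, Trim Galore 0.6.4, STAR 2.7.3 and RSEM 1.3.1 with builds mm10 and dm6, without saying which step used them. Of the counting rule, the annotation, the assignment of alleles and the treatment of duplicates, each is not given in the sources used here. Only reads over positions that differ between the parental strains can be assigned, so a gene's level depends on how many such positions it has.

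Both columns were added, and 4 control libraries were fitted with edgeR 4.0.16 (R 4.3.3; filterByExpr, TMM, quasi-likelihood test) with Benjamini-Hochberg adjustment over 9977 genes, called under 0.05. DESeq2 1.42.0 and limma 3.58.1 served as alternatives. Of 24077 genes, 23975 matched a RefSeq symbol and 81 a synonym, while 21 had no match. Genes at 0 in a group are given as a bound against 3 counts over the group, without an SE. Genes with 1 to 3 counts are given as a ratio with an exact 95% interval, which covers counting error only. On simulated counts for this comparison (9977 genes), 32% of 2-fold and 90% of 4-fold changes were recovered, with 7 false among 129 calls. For the interaction (10016 genes) the shares were 4% and 69%. Each simulation changed only 200 genes at a fixed spread, with equal means in both stages for the rest. In the data 67.5% of genes were called between the control stages, so these rates are not those of the real comparison.

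Genes were named by a rule: the 12 largest called rises and falls at 50 CPM or more without overlap, up to 6 members of each list by smallest p, the marker lists, the 5 genes with the most counts per stage, and Pcgf1, Pcgf6 and Xist. Some genes that the rule selects are not reported here. The text says where it goes outside this rule, except for members given only by their call, and for Slc22a18, Dnmt1 and Tet1, which were chosen after their values were seen. Members and lists were chosen with earlier results of these data known. Alternatives covered scaling, filters, tools, single alleles, depth and each replicate left out. Quantile normalisation and the restriction to genes above 3 counts in both stages were added after seeing the data. Oocyte libraries, morulae of the reciprocal crosses and chromatin maps were not used here.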

Additional observations from a re-analysis of the deposited data

Results flagged for a closer look

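The third knockout ExE library stood apart in its parental balance: 35.8% of its counts were maternal, while the other 3 libraries of its group lay between 51.5% and 52.6%. Its gap was 0.930 of the group's range, above Dixon's critical value at the 95% level for 4 libraries. Chance marks about 1 in 20 groups in this way, and 5 measures were examined. The library enters only the knockout repeat and the difference between genotypes.

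There were 6 genes of the text that changed differently between the stages in control and knockout embryos, by edgeR's interaction test at a Benjamini-Hochberg adjusted p under 0.05. The control change minus the knockout change, on the log2 scale, was -6.53 for Dsc2, 2.44 for Fos, -2.29 for Sparc, -1.32 for Cldn6, 0.985 for Mt1 and -1.42 for Dab2. Each was also called without the third knockout ExE library, with differences of -6.41, 2.38, -2.32, -1.33, 1.06 and -1.42. Other libraries mattered more: of the 38 genes called for this difference, 1 kept its call without morula CTR replicate 1, 1 without the first knockout morula library and 3 without ExE CTR replicate 2. Sparc was at 79.2 and 75.3 CPM in control morulae and 33.0 and 33.2 CPM in knockout morulae, against 38.3 and 37.9 CPM in control ExE and 60.6 to 105 CPM in knockout ExE.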

How the results depend on the processing

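Of 163 tested genes that the text names, 151 were called, and 122 of those kept call and direction in each of the 18 alternatives that gave them a value. For the control comparison, a test against a 2-fold change called 4275 genes, of which 1390 were rises, and scaling by library totals gave 1551 rises. Leaving out each library gave 2148 to 2635 rises and 3054 to 3761 falls. The lone library of a stage was then assumed to vary like the other stage. The counts for the difference between control and knockout stage changes moved most: DESeq2's Wald test called 182 genes (62 rises, 120 falls) and no filter 238 (53 and 185). Leaving out each library gave 1 to 74 genes, with 0 to 17 rises and 1 to 57 falls. It was 68 without ExE CTR replicate 1, 3 without ExE CTR replicate 2, 18 and 13 without knockout ExE replicates 1 and 2, and 1 without the first knockout morula library. The cause was not tested.

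The labels do not state that same-numbered libraries are paired. In controls, the replicate 1 deviations of ExE and morula correlated at 0.0144 across 9977 genes. With 2 libraries per group this is a single comparison, which does not settle whether they share a source. The knockout libraries were not checked. With the replicate block, 2721 rises and 3812 falls were called in controls, and 259 genes (81 rises, 178 falls) for the difference between genotypes.

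Among single genes, values turned sign with paternal counts alone for Ascl2 (-0.71), Cited1 (-7.39), Cox7b (-0.59), Gata1 (-6.41), Dusp6 (0.042), Ezh2 (-0.36) and Perp (0.032), and with maternal counts alone for Rps29 (-5.80), Slc2a3 (-0.35) and Smoc1 (-3.10). Quantile normalisation turned Eif1a (-0.40), Nme1 (-0.43), Dusp6 (0.75) and Ezh2 (-0.14). Library totals turned Cdh1 (-0.14), Ezh2 (-0.49) and Slc2a3 (-0.067), and thinning to equal depth turned Ezh2 (-0.0029). With each library left out, 7 genes that were not called crossed 0: Dusp6 (-2.95 to 0.81), Eomes (-0.62 to 1.37), Ezh2 (-0.027 to 0.32), Fgfr2 (-0.51 to 0.19), Hk2 (-0.55 to 0.093), Plk2 (-1.37 to 0.030) and Slc2a3 (-0.46 to 1.20). The smaller morula libraries limit low genes: 10 counts lie behind the morula value of Elf5.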

Other observations

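The 2 control ExE libraries differed along gene groups. Among members with at least 20 ExE counts, all 5 ectoplacental genes were higher in replicate 2 (median log2 difference 0.75), as were 53 of 64 ribosomal protein genes (0.18) and 45 of 57 genes of oxidative phosphorylation (0.15). In replicate 1, 12 of 18 trophoblast stem genes (-0.33, replicate 2 minus replicate 1) and 15 of 17 glycolysis genes (-0.27) were higher. Over all 8029 genes with as many counts, 4032 were higher in replicate 1 and 3997 in replicate 2. With 1 library of each kind these differences have no replicate check.

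The X-linked maternal share in the knockout morulae was 62.0% and 57.6%, against 75.6% and 74.4% in the control morulae. In the third knockout ExE library the autosomal maternal share was 35.1%.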
